A study of Mus musculus with 21 samples.

Results

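The 10 genes described here encode transcription factors that pattern the limbs or mark position along the body: Pitx1, Tbx4, Tbx5, Sall1, Tbx15, Tbx18, Shox2, En1, Meis1 and Meis2. Given by their symbols (PITX1, TBX4, TBX5, SALL1, TBX15, TBX18, SHOX2, EN1, MEIS1 and MEIS2), they were looked up in the count tables of 3 mouse fibroblast types, where all 10 were listed among the 24447 genes that the tables share. Pitx1, Sall1 and Tbx15 had been selected on measured values, since their counts in mouse embryonic fibroblasts (MEF) were on in some groups and off or low in others. Their levels in MEF are therefore given as a description, with no test, and the other 7 genes were tested in every comparison where their counts allowed it.

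Bulk RNA-seq covered 21 cultures in 7 groups of 3, and the question was how loss of the paired-type homeobox factor Prrx1 changed fibroblasts of different origin. WT MEF came from C57BL/6 embryos at embryonic day 10 to 13. Prrx1 mutant MEF came from embryos of the same age that carried the knock-in allele 129S-Prrx1tm1Jfm/Mmmh; the labels give their strain as C57BL/6, and the methods state that the allele was backcrossed to that strain. MEF labelled sgPrrx1 (C57BL/6) carried CRISPR/Cas9 and a guide RNA against Prrx1. Wound-healing fibroblasts, WT or sgPrrx1, were taken from dorsal wounds of C57BL/6 mice 10 days after wounding. MMTV-CAF, WT or sgPrrx1, were cancer-associated fibroblasts of breast tumours in MMTV-PyMT mice, and their strain is FVB/NJ. For the cells treated as WT, the labels name a control guide, sgNS, but they do not make clear whether the WT MEF carried it. Every culture, the WT ones included, had been immortalized with HPV oncogenes and grown in DMEM with serum. No label or method ties the 3 cultures of a group to separate animals or separate derivations, so p-values measure only the spread between these cultures, which may be technical.

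These factors act as regional switches in the embryo. Pitx1 is expressed in the hindlimb bud, where it acts upstream of Tbx4, the T-box factor of the hindlimb, whereas Tbx5 is its counterpart in the forelimb. Sall1 is a zinc finger factor of the limb, kidney and ear, Tbx15 and Tbx18 pattern the dermis and skeleton of the trunk and limb girdles, and Shox2 is needed for the proximal long bones. En1 marks the ventral limb ectoderm and a lineage of dorsal dermis, and Meis1 and Meis2 are TALE homeobox factors of the proximal limb that pair with Pbx and Hox proteins. Cultured fibroblasts are known to keep part of the regional pattern of the tissue from which they came.

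Each gene had a whole number of counts per culture as deposited, and cultures held between 69588655 and 134790440 counts. Levels below are CPM, counts scaled to library size, after TMM scaling of all 21 cultures together. Genes were called changed at a Benjamini-Hochberg adjusted p under 0.05 from edgeR's quasi-likelihood test. With 3 cultures against 3, an exact permutation test of a single gene cannot go below p = 0.1. Prrx1 averaged 12.3% of its WT mean in mutant MEF and, with sgPrrx1, 66.6% in MEF, 48.4% in MMTV-CAF and 44.1% in wound-healing fibroblasts, and no culture with Prrx1 loss overlapped its WT group. These are transcript levels and do not measure the loss of Prrx1 protein. The paper checked its guide by western blot. Of 10 fibroblast markers, all had counts in every group except Lum, which was at 0 in mutant MEF and in sgPrrx1 wound-healing fibroblasts. Marker lists of other cell types were not at 0. The sum of the 8 epithelial markers was highest in mutant MEF and that of the 6 endothelial markers in WT wound-healing fibroblasts, with values given beside the results they touch. The 6 neural and glial markers summed to 296 to 333 CPM in sgPrrx1 MEF and 139 to 145 CPM in WT MEF, with Sox10 at 0 in both, and their part in the MEF results was not tested. In cultures measured as a bulk, fewer cells with a transcript and less of it per cell cannot be told apart.

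Pitx1 (RefSeq GRCm38.p6, chr13:55825044-55836190) was expressed in WT MEF and had no counts in mutant MEF. It had 1378, 1412 and 2367 counts in the WT MEF cultures, 0 in each of the 3 mutant cultures, and 1802, 2316 and 2703 counts in the sgPrrx1 MEF cultures. The WT mean of 22.5 ± 4.08 CPM (SD, n = 3) was at least 1729-fold above the mutant level, when 3 counts over the group are taken as the limit that 0 counts allow. The sgPrrx1 MEF cultures averaged 31.9 ± 4.56 CPM (SD, n = 3). Their range, 26.6 to 34.9 CPM, overlapped that of WT MEF, 19.99 to 27.2 CPM. These are the values for which Pitx1 had been picked.

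Outside MEF, Pitx1 was also split between on and off. WT wound-healing fibroblasts held 22.6, 21.3 and 21.4 CPM, close to the level of WT MEF, and their sgPrrx1 counterparts held 24.2, 23.7 and 24.4 CPM, all above the WT cultures. This rise was small, 0.14 on the log2 scale (SE 0.03, edgeR adjusted p = 0.00471). WT MMTV-CAF had 0 counts in each of 3 cultures, which allows up to 0.00847 CPM over the group. The sgPrrx1 MMTV-CAF had 16, 11 and 18 counts, or 0.128 ± 0.0415 CPM (SD, n = 3), at least 15.1-fold above that limit. Counts in these 6 cultures were too low to pass the filter, so Pitx1 was not tested there.

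Tbx4 (chr11:85886367-85916097) showed the opposite pattern in MEF. Its counts were 1856, 2597 and 2365 in the mutant cultures and 0 in each culture of WT and sgPrrx1 MEF. The mutant mean was 29.8 ± 5.44 CPM (SD, n = 3), at least 2236-fold above the WT level. Tbx4 passed the filter on low counts only through the mutant cultures, so no test of it is given. Neither group of wound-healing fibroblasts had a count, nor did WT MMTV-CAF, and of the sgPrrx1 MMTV-CAF cultures only replicate 3 had any, with 5. Tbx5 (chr5:119796514-119885220) had 0 counts in every culture except the same sgPrrx1 MMTV-CAF replicate, which had 2. Thus the hindlimb T-box gene was on in mutant MEF without Pitx1, Pitx1 was on in WT MEF without Tbx4, and the forelimb gene was not detectable at this depth in any MEF group, where 0 counts allow up to 0.0141 CPM.

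Sall1 (chr8:89027242-89044162) followed Tbx4. It had 4080, 4309 and 3631 counts in mutant MEF and 0 in each of the other 18 cultures. The mutant mean of 52.3 ± 1.25 CPM (SD, n = 3) was at least 3926-fold above WT MEF and at least 3708-fold above sgPrrx1 MEF, and these are again the values for which it had been picked. The RefSeq promoters of the pair that appeared in the same cultures are shown here, from 250 bases before to 50 after the annotated start. They lie at chr11:85896515-85896814 on the plus strand for Tbx4 and at chr8:89044113-89044412 on the minus strand for the most upstream of 3 Sall1 starts (GRCm38.p6). The Tbx4 start lies inside the annotated gene, chr11:85886367-85916097, and no promoter was listed at the upstream end of that gene.
Tbx4: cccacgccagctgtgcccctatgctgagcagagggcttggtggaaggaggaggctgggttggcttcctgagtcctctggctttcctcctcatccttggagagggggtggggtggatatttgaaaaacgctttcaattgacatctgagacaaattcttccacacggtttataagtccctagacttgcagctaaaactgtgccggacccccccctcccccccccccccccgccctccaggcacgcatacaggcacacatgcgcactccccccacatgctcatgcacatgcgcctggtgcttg
Sall1: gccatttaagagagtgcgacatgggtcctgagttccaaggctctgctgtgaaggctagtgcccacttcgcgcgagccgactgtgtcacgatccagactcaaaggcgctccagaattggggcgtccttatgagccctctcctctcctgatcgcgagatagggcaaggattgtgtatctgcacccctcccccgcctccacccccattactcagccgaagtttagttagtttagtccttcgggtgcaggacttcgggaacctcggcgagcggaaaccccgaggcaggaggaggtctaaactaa
Neither sequence contained the paired-type homeodomain core TAATTA, the T-box half-site GGTGTGA or the Meis half-site TGACAG on either strand. These letters were present in 5.3, 4.0 and 19.2% of all 32851 RefSeq promoters of this length. CG dinucleotides numbered 8 for Tbx4 and 18 for Sall1, against a median of 7 over all promoters. Promoters were listed for 7 of the 10 genes.

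Other transcripts also differed widely between mutant and WT MEF. The 8 epithelial markers summed to 198 to 239 CPM in mutant MEF, 17.8 to 19.96 CPM in WT MEF and 24.5 to 28.6 CPM in sgPrrx1 MEF. Epcam and Krt5 were at 0 in all 3 groups. In mutant MEF Krt19 was higher than in WT (log2 fold change 4.12, SE 0.10, edgeR adjusted p = 1.35e-06). Krt8 and Krt18 were higher too, but both were too low in WT and sgPrrx1 MEF to be tested between them. They entered through the mutant cultures, so no test of them is given. Krt18 had 0 counts in WT MEF and 138 over the mutant cultures. Krt14 had 0 counts in mutant MEF, at least 452-fold below WT, and Cdh1 was lower in mutant MEF (−4.74, SE 0.83, edgeR adjusted p = 0.0025). Y-linked Kdm5d was at 11.02 ± 0.612 CPM in WT MEF and 0.0118 ± 0.0204 CPM in mutant MEF (SD, n = 3 each), while Y-linked Ddx3y was at 15.8 and 21.2 CPM. The part of these differences in the Pitx1, Tbx4 and Sall1 values was not tested. Genotype and the embryos from which the MEF were derived cannot be told apart in these cultures.

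**Figure D1:**
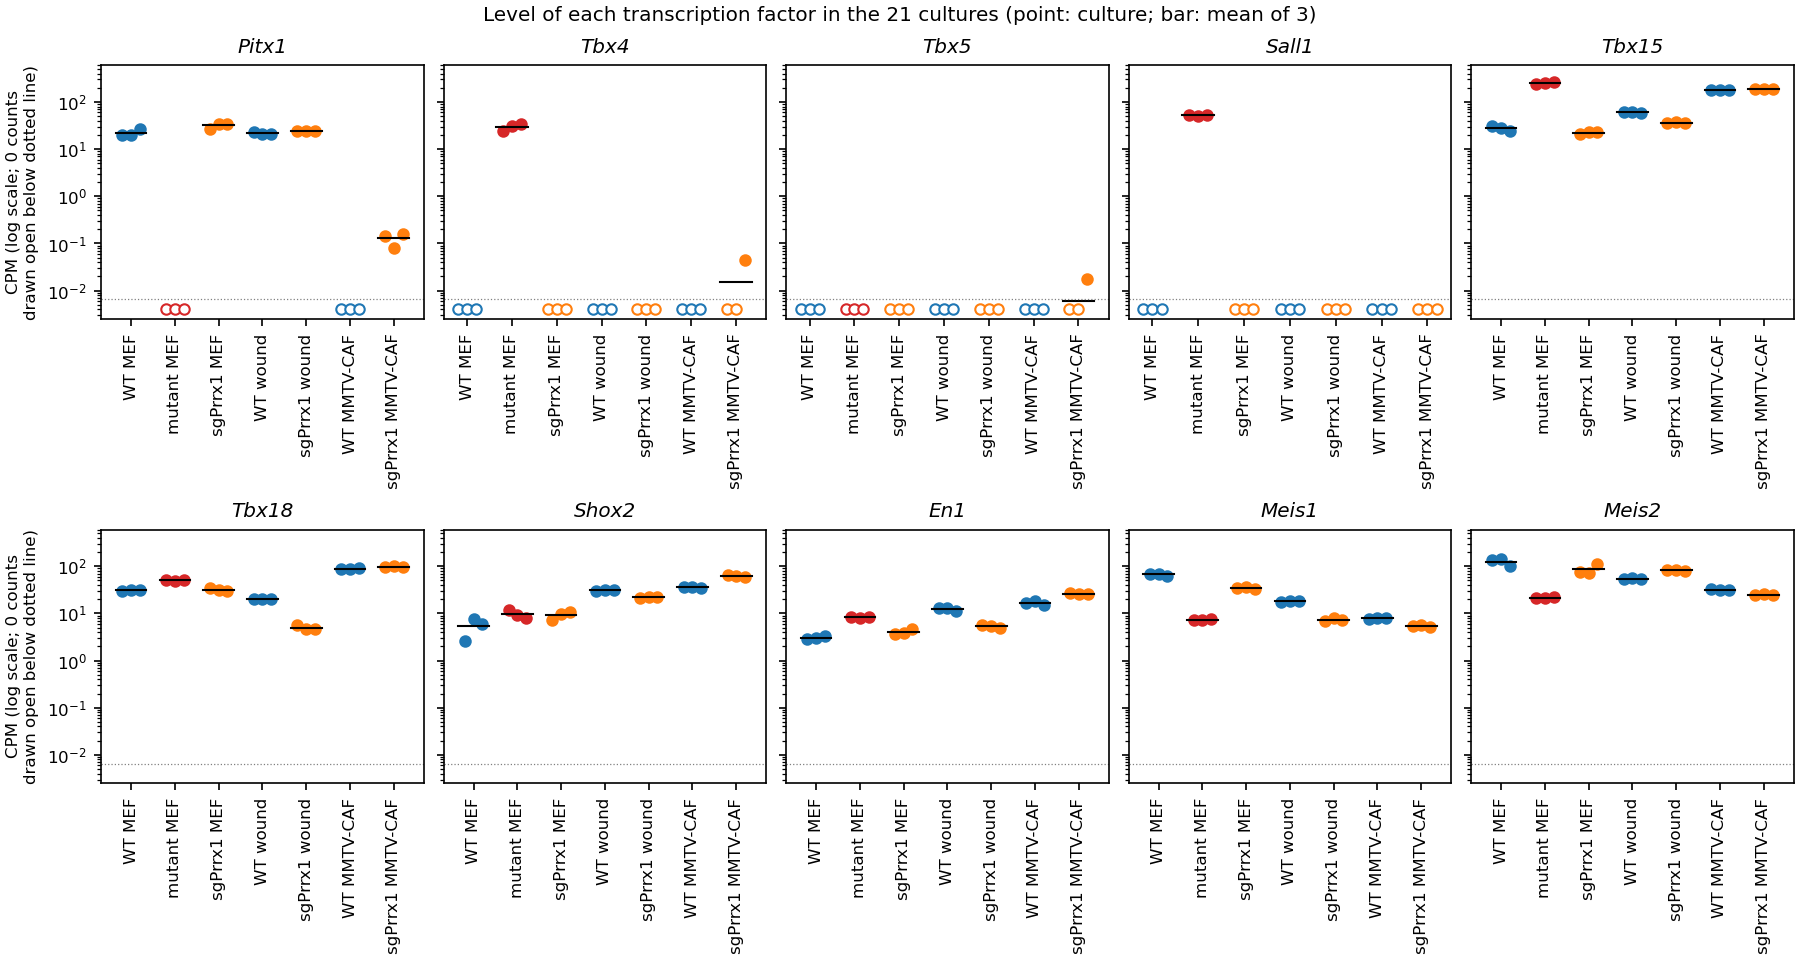
Level of each of the 10 genes in the 21 cultures, in CPM on a log axis; points are cultures, bars are means of 3, and open circles under the dotted line are cultures with 0 counts. Tbx4 and Sall1 were above 20 CPM in mutant MEF alone, Pitx1 was at 0 counts in mutant MEF and WT MMTV-CAF, and Tbx5 was at or near 0 in every group.

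Tbx15 (chr3:99240348-99354260), a T-box factor of dermis and limb skeleton, was the most abundant of the 10 genes in mutant MEF. WT MEF held 30.9, 27.8 and 24.3 CPM, mutant MEF 246, 257 and 263 CPM, and sgPrrx1 MEF 21.3, 22.9 and 22.7 CPM. The mutant mean was 9.22-fold that of WT, and the sgPrrx1 mean was 80.6% of it, with all 3 sgPrrx1 cultures below all WT cultures. These MEF values had chosen the gene. In wound-healing fibroblasts Tbx15 fell from 60.7, 60.9 and 58.6 CPM in WT to 36.1, 37.2 and 35.6 CPM with sgPrrx1, a log2 fold change of −0.73 (SE 0.03, edgeR adjusted p = 5.21e-08). In MMTV-CAF the level was high and nearly flat, with 176 ± 0.0495 CPM in WT and 188 ± 2.38 CPM with sgPrrx1 (SD, n = 3 each). That rise of 0.07 on the log2 scale (SE 0.02) passed the test with an edgeR adjusted p of 0.00362.

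Tbx18 (chr9:87702800-87731260), which patterns the somites, limb girdles and sinus region of the heart, moved in opposite directions in mutant MEF and in wound-healing fibroblasts. WT MEF had 29.2, 32.1 and 31.3 CPM and mutant MEF 50.2, 48.7 and 50.9 CPM, a rise of 0.67 on the log2 scale (SE 0.08, edgeR adjusted p = 0.000344). The sgPrrx1 MEF, at 34.2, 30.8 and 29.3 CPM, overlapped WT MEF, and the log2 difference was 0.01 (SE 0.08, edgeR adjusted p = 0.902). Its sign was negative under 4 of the 13 alternatives described in the closing section. In wound-healing fibroblasts Tbx18 showed the largest fall of any of these genes there, from 20.4, 19.7 and 20.7 CPM in WT to 5.54, 4.60 and 4.75 CPM with sgPrrx1, or 24.5% of the WT mean. This was −2.03 on the log2 scale (SE 0.07, edgeR adjusted p = 1.72e-08). MMTV-CAF held the highest levels, 88.9 ± 1.26 CPM in WT and 96.7 ± 2.10 CPM with sgPrrx1 (SD, n = 3 each), a rise of 0.10 (SE 0.02, edgeR adjusted p = 0.00307).

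Shox2 (chr3:66971723-66981771), a homeobox factor of the proximal limb skeleton, was low in MEF and several times higher in adult fibroblasts. WT MEF cultures were uneven, with 2.64, 7.57 and 5.92 CPM, and overlapped the sgPrrx1 cultures at 7.13, 9.76 and 10.6 CPM. Mutant MEF, at 11.8, 9.43 and 8.04 CPM, lay above all WT cultures. Neither difference passed the test: the log2 fold change was 0.84 (SE 0.36, edgeR adjusted p = 0.0805) in mutant MEF and 0.76 (SE 0.36, adjusted p = 0.126) in sgPrrx1 MEF. Without WT replicate 2, the value in mutant MEF became 1.17 with an adjusted p of 0.0381. In wound-healing fibroblasts Shox2 fell from 30.0, 30.8 and 30.9 CPM to 21.2, 22.4 and 21.8 CPM, −0.49 on the log2 scale (SE 0.03, edgeR adjusted p = 1.04e-06). In MMTV-CAF it rose instead, from 36.0, 35.5 and 35.4 CPM to 63.7, 61.8 and 60.4 CPM, 0.78 on the log2 scale (SE 0.03, edgeR adjusted p = 4.12e-08).

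En1 (chr1:120602487-120607991), the homeobox gene that marks a dermal fibroblast lineage, changed like Shox2 in the adult types. It was at 2.86, 2.94 and 3.31 CPM in WT MEF, at 8.36, 7.89 and 8.38 CPM in mutant MEF and at 3.61, 3.91 and 4.59 CPM in sgPrrx1 MEF, and the 3 groups did not overlap. The rise in mutant MEF was 1.41 on the log2 scale (SE 0.12, edgeR adjusted p = 7.64e-05). In sgPrrx1 MEF the log2 difference of 0.40 (SE 0.14) had an adjusted p of 0.0556, which became 0.0474 without WT replicate 3 and 0.0495 without sgPrrx1 replicate 1. Wound-healing fibroblasts fell from 13.2, 13.0 and 11.2 CPM to 5.59, 5.46 and 4.93 CPM, −1.23 on the log2 scale (SE 0.08, edgeR adjusted p = 1.07e-06). MMTV-CAF rose from 16.6, 18.3 and 15.3 CPM to 27.6, 25.2 and 25.3 CPM, 0.62 on the log2 scale (SE 0.07, edgeR adjusted p = 6.91e-05).

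The promoters of Tbx18 and En1 are shown because both genes fell in wound-healing fibroblasts and because they were the only 2 of the 9 listed promoters of these genes that held any of the letters searched. They lie at chr9:87731211-87731510 on the minus strand and at chr1:120602237-120602536 on the plus strand (GRCm38.p6, RefSeq). Capitals mark the Meis half-site TGACAG, which in En1 is read on the other strand.
Tbx18: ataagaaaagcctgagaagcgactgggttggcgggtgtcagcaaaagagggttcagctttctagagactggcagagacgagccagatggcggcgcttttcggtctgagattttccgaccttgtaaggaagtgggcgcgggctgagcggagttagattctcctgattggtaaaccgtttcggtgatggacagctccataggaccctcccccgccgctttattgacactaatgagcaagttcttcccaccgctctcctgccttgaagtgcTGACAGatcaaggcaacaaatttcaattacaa
En1: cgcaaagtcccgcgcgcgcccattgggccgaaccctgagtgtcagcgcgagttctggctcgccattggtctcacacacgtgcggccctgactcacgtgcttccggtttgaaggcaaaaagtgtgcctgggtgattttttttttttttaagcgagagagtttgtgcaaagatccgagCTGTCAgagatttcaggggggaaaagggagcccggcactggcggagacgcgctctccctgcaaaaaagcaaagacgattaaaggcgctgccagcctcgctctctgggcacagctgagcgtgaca
Each held 1 match, and 19.2% of all promoters of this length hold at least 1. The Tbx18 promoter had 15 CG dinucleotides and that of En1 had 23. A match of 6 letters is a description of the sequence and not of binding.

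Meis1 (chr11:18880428-19019651), a TALE homeobox factor of the proximal limb, was lower with Prrx1 loss in every comparison with WT. WT MEF held 69.9, 69.1 and 61.3 CPM, sgPrrx1 MEF 34.7, 35.8 and 32.4 CPM, and mutant MEF 7.10, 7.21 and 7.70 CPM, with no overlap between groups. Mutant MEF had 10.99% of the WT mean, −3.21 on the log2 scale (SE 0.10, edgeR adjusted p = 1.8e-06), and sgPrrx1 MEF had 51.3%, or −0.97 (SE 0.08, adjusted p = 0.000186). These 2 comparisons share their WT cultures. Wound-healing fibroblasts fell from 17.7, 18.5 and 17.9 CPM to 6.94, 7.92 and 7.12 CPM, −1.30 on the log2 scale (SE 0.06, edgeR adjusted p = 8.24e-08). MMTV-CAF fell from 7.73, 8.02 and 7.95 CPM to 5.35, 5.68 and 5.15 CPM, −0.57 on the log2 scale (SE 0.05, edgeR adjusted p = 2.11e-05). Across the alternatives of tool, scaling, filter, model and cultures left out, each of these 4 falls kept its sign and an adjusted p of at most 0.00178, while at a 2-fold threshold those in sgPrrx1 MEF and MMTV-CAF were not called.

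Meis2 (chr2:115861264-116067537), a close relative of Meis1, fell in mutant MEF and MMTV-CAF and rose in wound-healing fibroblasts. It was at 135, 142 and 100 CPM in WT MEF and at 20.7, 21.6 and 22.7 CPM in mutant MEF, 17.2% of the WT mean and −2.56 on the log2 scale (SE 0.15, edgeR adjusted p = 1.51e-05). The sgPrrx1 MEF cultures were uneven, at 76.9, 72.6 and 111 CPM, and replicate 3 lay within the WT range. Their log2 difference of −0.54 (SE 0.20) had an edgeR adjusted p of 0.0608, which became 0.0176 without sgPrrx1 replicate 3 and 0.0264 without WT replicate 3. In wound-healing fibroblasts Meis2 rose from 53.1, 55.3 and 53.6 CPM to 82.2, 85.1 and 78.4 CPM, 0.60 on the log2 scale (SE 0.03, edgeR adjusted p = 4.74e-07), while Meis1 fell in the same cultures. MMTV-CAF fell from 33.2, 31.5 and 31.5 CPM to 24.9, 25.7 and 24.5 CPM, −0.38 on the log2 scale (SE 0.03, edgeR adjusted p = 1.43e-05).

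Counted over the genes that could be tested, most of these factors changed in every comparison with WT except sgPrrx1 MEF, but so did most genes. In mutant MEF, 4 of 5 genes that had not been picked were called, apart from Tbx4, which entered only through the group where it was on. En1 and Tbx18 were higher and Meis1 and Meis2 lower, while 59.9% of all genes tested were called (29.4% higher, 30.5% lower). In sgPrrx1 MEF, Meis1 was the only 1 of 5 tested genes called, against 43.1% of all genes (22.8% lower). That count was 3 without WT replicate 3 and 2 without sgPrrx1 replicate 1 or replicate 3. In wound-healing fibroblasts all 7 tested genes were called, 2 higher and 5 lower, against 77.6% of all genes (38.3% higher, 39.3% lower). In MMTV-CAF all 6 tested genes were called, 4 higher and 2 lower, against 83.1% of all genes (41.2% higher, 41.9% lower). The genes left out, Tbx5 everywhere and Tbx4, Sall1 or Pitx1 in some comparisons, had too few counts. The share of called genes was therefore near the background in the adult types. Counts at a 2-fold threshold are given in the closing section, beside those over all genes.

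The median log2 fold change of the tested genes was −0.73 in wound-healing fibroblasts, 0.09 in MMTV-CAF, 0.01 in sgPrrx1 MEF and, without Tbx4, 0.67 in mutant MEF, and the median over all genes tested was between 0 and 0.01. Marker lists moved as well. The 10 fibroblast markers summed to between 9518 and 9578 CPM in WT and between 3615 and 3652 CPM in sgPrrx1 wound-healing fibroblasts. Their sum was also lower in MMTV-CAF, at 33185 to 33932 CPM in WT and 16840 to 17024 CPM with sgPrrx1. In MEF it was 12705 to 13022 CPM in WT, 5676.2 to 6958.5 CPM in mutant and 9896.1 to 11657 CPM in sgPrrx1 cultures. The 6 endothelial markers summed to 287 to 293 CPM in WT and 140 to 145 CPM in sgPrrx1 wound-healing fibroblasts, with Kdr the only one tested and Pecam1 at 0 in both. The sum of the 8 epithelial markers fell from 52.1 to 54.2 CPM in WT MMTV-CAF to 0.204 to 0.339 CPM with sgPrrx1, with Krt19 the only one tested and Epcam at 0 in both. Y-linked Ddx3y was lower in sgPrrx1 than in WT wound-healing fibroblasts (−3.37, SE 0.07, edgeR adjusted p = 9.93e-10). Y-linked Kdm5d (0.30, SE 0.04), Uty (0.20, SE 0.07) and Eif2s3y (−0.08, SE 0.03) moved little there. The part of these markers in the changes above was not tested. Within a type, sgPrrx1 and the derivation of the WT and edited cultures cannot be told apart.

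**Figure D2:**
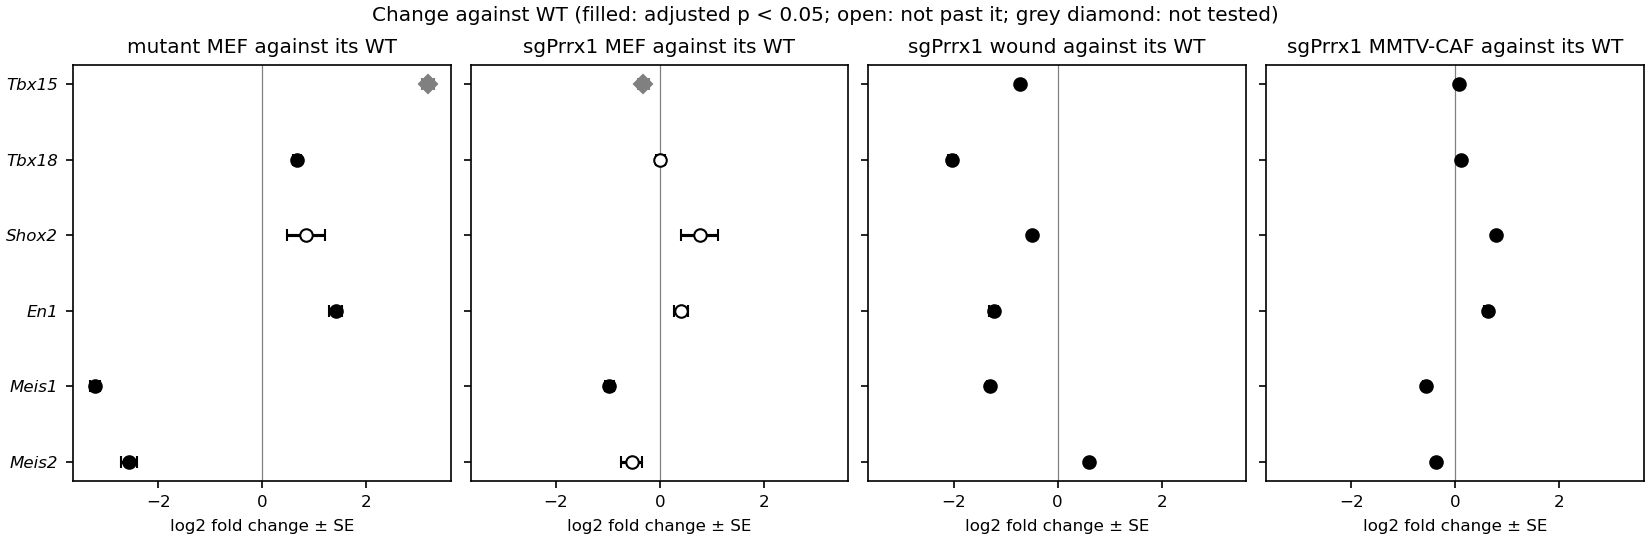
Log2 fold change against WT of the same fibroblast type, with the standard error as a horizontal bar, for the 6 genes present in every group; filled points passed an adjusted p of 0.05, open points did not, and grey diamonds are Tbx15 in MEF, which was not tested. Meis1 lies left of 0 in all 4 panels, whereas Shox2 and En1 lie left of 0 in wound-healing fibroblasts and right of 0 in the others.

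The 2 kinds of Prrx1 loss in MEF gave different levels for most of these genes. Compared directly, sgPrrx1 MEF had higher Meis1 (log2 difference 2.23, SE 0.08, edgeR adjusted p = 3.8e-06) and Meis2 (2.01, SE 0.17, adjusted p = 0.000111) than mutant MEF. They had lower En1 (−1.02, SE 0.11, edgeR adjusted p = 0.000361) and Tbx18 (−0.66, SE 0.08, adjusted p = 0.000607). Tbx4 was at 0 in sgPrrx1 MEF and at least 2112-fold higher in mutant MEF. Shox2 did not pass the test, with a log2 difference of −0.09 (SE 0.20, edgeR adjusted p = 0.732) whose sign turned without mutant replicate 1 (0.07) or without sgPrrx1 replicate 1 (0.06). Apart from Tbx4, 4 of 5 genes were thus called in this comparison, where 56.2% of all genes were. The Prrx1 transcript was 5.41-fold higher in sgPrrx1 than in mutant MEF, and protein was not measured here.

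The WT cultures of the 3 fibroblast types differed from each other in every one of the 5 genes that could be tested over all types. The edgeR adjusted p of the test over types was 4.76e-08 for En1, 5.1e-10 for Meis1, 4.06e-07 for Meis2, 3.35e-05 for Shox2 and 5.86e-10 for Tbx18, and 93.3% of all genes passed. All 5 were also called between wound-healing fibroblasts and MEF, against 80.3% of all genes, and between MMTV-CAF and MEF, against 79.2%. MEF had the highest levels of Meis1 and Meis2. Relative to WT MEF, Meis1 was lower by 1.86 (SE 0.06) in wound-healing fibroblasts and by 3.13 (SE 0.06) in MMTV-CAF on the log2 scale. Shox2 was higher than in MEF by 2.54 (SE 0.29) in wound-healing fibroblasts and by 2.68 (SE 0.29) in MMTV-CAF, and En1 by 2.07 (SE 0.10) and 2.42 (SE 0.10). Tbx18 was lower in wound-healing fibroblasts by 0.58 (SE 0.04) and higher in MMTV-CAF by 1.48 (SE 0.04).

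Between the WT cultures of the adult types, Pitx1 was on in wound-healing fibroblasts alone and is left out, and 5 of the other 6 genes tested were called, against 80.4% of all genes. MMTV-CAF had 2.06 more Tbx18 (SE 0.04, edgeR adjusted p = 6.08e-10), 1.48 more Tbx15 (SE 0.08, adjusted p = 1.34e-07) and 0.35 more En1 (SE 0.09, adjusted p = 0.00632) on the log2 scale. They had less Meis1 (−1.27, SE 0.06, edgeR adjusted p = 6.48e-08) and less Meis2 (−0.83, SE 0.11, adjusted p = 0.000117). Shox2 differed by 0.14 (SE 0.26, edgeR adjusted p = 0.63). Fibroblast type, strain and culture line cannot be told apart here, and the MMTV-CAF cultures, with all 4 Y-linked genes listed at 0 and Xist at 428 ± 38.7 CPM in WT (SD, n = 3), differed from the other types in sex-linked genes as well.

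The effect of sgPrrx1 on these genes differed between the fibroblast types, as it did for most genes. Type, strain and culture line cannot be told apart in these differences. The interaction of type and sgPrrx1 over 18 cultures was called for all 5 genes tested, while it was called for 80.1% of all genes. The edgeR adjusted p was 4.01e-09 for En1, 5.41e-06 for Meis1, 0.000113 for Meis2, 0.0012 for Shox2 and 6.97e-12 for Tbx18. Wound-healing fibroblasts were the type that stood apart from MEF in all 5, against 60.3% of all genes, with a difference between effects of −2.08 for Tbx18 (SE 0.09), −1.66 for En1 (SE 0.14), −1.28 for Shox2 (SE 0.32), 1.11 for Meis2 (SE 0.19) and −0.36 for Meis1 (SE 0.09) on the log2 scale. Between MMTV-CAF and MEF, only the difference for Meis1 was called (0.42, SE 0.09, edgeR adjusted p = 0.000843), against 60.7% of all genes. The other 4 differences lay between 0.04 and 0.24, with adjusted p-values from 0.148 to 0.959 from edgeR. Between MMTV-CAF and wound-healing fibroblasts 6 of 6 genes differed in their response, Pitx1 left out, against 66.5% of all genes, and the closing section gives their values.

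The order of levels over the 7 groups was specific to each gene. En1 and Tbx15 each had 7 levels with no overlap between neighbours, from 26.1 ± 1.37 CPM in sgPrrx1 MMTV-CAF down to 3.04 ± 0.243 CPM in WT MEF for En1, and from 255 ± 8.69 CPM in mutant MEF down to 22.3 ± 0.887 CPM in sgPrrx1 MEF for Tbx15 (SD, n = 3 each). For Meis1, mutant MEF at 7.34 ± 0.323 CPM and sgPrrx1 wound-healing fibroblasts at 7.33 ± 0.520 CPM (SD, n = 3 each) overlapped, and all other neighbours in the order were separate. For Meis2, sgPrrx1 MEF overlapped both WT MEF and sgPrrx1 wound-healing fibroblasts at the top of the order, and mutant MEF were lowest. For Shox2, sgPrrx1 MEF overlapped both mutant and WT MEF at the bottom, while mutant MEF lay above all WT MEF cultures. Per kilobase of exon, using the Gencode M1 gene models, Tbx15 led in mutant MEF with 68.0 CPM per kb, followed by Tbx18 with 10.7, Sall1 with 9.95 and Tbx4 with 8.75. In WT MEF the levels per kilobase were closer, with Meis2 at 10.6, Meis1 at 9.03, Pitx1 at 8.49, Tbx15 at 7.38 and Tbx18 at 6.60 CPM per kb. In WT MMTV-CAF Tbx15 led with 47.1 CPM per kb, and Shox2 was at 10.6.

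Across the 21 cultures, the genes whose log2 CPM was most like that of each factor were found among 12173 genes with a mean of at least 1 CPM, as a description in which cultures of a group share their origin. Eya2 was most like both Tbx4 (Pearson r = 0.996, n = 21) and Sall1, and it was at 21.8 ± 5.08 CPM in mutant MEF (SD, n = 3) with 0 counts elsewhere. Fndc3c1 was like both as well (r = 0.994 and 0.999), and Sox2 was like Sall1 (r = 0.997). These values rest on 1 group of 3 cultures in which the genes were on. Nuak1 was most like Tbx15 (r = 0.987), Plod1 most like Tbx18 (r = 0.985), Ckap4 most like En1 (r = 0.980), Negr1 most like Meis2 (r = 0.972) and Fam120aos most like Shox2 (r = 0.970). For Pitx1 the leading genes were 1700030C10Rik and Kdm5d, both at r = 0.976. Among the factors themselves, the strongest positive relation beside Tbx4 with Sall1 was Pitx1 with Meis2 (r = 0.89), and the strongest negative one was Tbx15 with Meis2 (r = −0.95).

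Relatives of these factors changed too, and no family moved in 1 direction in all comparisons. Of 13 other T-box genes, 4 of 5 tested were called in mutant MEF, 2 of 4 in sgPrrx1 MEF, 6 of 7 in wound-healing fibroblasts and 3 of 5 in MMTV-CAF, with medians of 0.14, 0.23, 0.71 and 0.50 on the log2 scale. Over all genes, 59.9, 43.1, 77.6 and 83.1% were called in these comparisons, in the same order. In mutant MEF the largest rise was that of Tbx20, a cardiac T-box gene, which went from 0 counts in WT to 4.30 ± 0.153 CPM (SD, n = 3), at least 323-fold. Tbx20 is among the 4 called there, although it entered only through the mutant cultures. The largest fall there was that of Tbx2, the neighbour of Tbx4, with a log2 fold change of −2.81 (SE 0.50, edgeR adjusted p = 0.00269). Tbx2 also rose most in wound-healing fibroblasts (1.76, SE 0.51, adjusted p = 0.012) and fell most in MMTV-CAF (−1.38, SE 0.34, adjusted p = 0.00558), at levels of at most 1.05 CPM in any group mean. Tbx1 fell in wound-healing fibroblasts from 0.181 to 0.0249 CPM, and Tbr1 rose in MMTV-CAF from 0.00755 to 0.130 CPM, both close to the detection limit. In sgPrrx1 MEF the extremes were Mga, a T-box factor with a further DNA-binding domain (0.60, SE 0.14, edgeR adjusted p = 0.0142), and Eomes (−0.67, SE 0.20, adjusted p = 0.0309).

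TALE homeobox relatives, the partners and kin of Meis1 and Meis2, were all expressed. Of 9 tested, 6 were called in mutant MEF (2 higher, 4 lower, median −0.47), 4 in sgPrrx1 MEF (1 higher, 3 lower, median −0.14), 8 in wound-healing fibroblasts (6 higher, 2 lower, median 0.30) and 8 in MMTV-CAF (6 higher, 2 lower, median 0.37), near the shares of all genes of 59.9, 43.1, 77.6 and 83.1%. Pbx4 fell most in mutant MEF (log2 fold change −2.54, SE 0.23, edgeR adjusted p = 0.000111) and in MMTV-CAF (−1.54, SE 0.16, adjusted p = 3.03e-05). Tgif2, a repressor of the family, rose most in mutant MEF (1.52, SE 0.11, edgeR adjusted p = 5.16e-05) and fell most in wound-healing fibroblasts (−0.32, SE 0.04, adjusted p = 0.000105). Pknox2 fell in sgPrrx1 MEF by 2.46 on the log2 scale (SE 0.24, edgeR adjusted p = 0.000357), where Pbx2 rose most (0.29, SE 0.07, adjusted p = 0.0145). Meis3 rose most in MMTV-CAF (0.58, SE 0.03, edgeR adjusted p = 3.23e-07).

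Among 8 relatives of Sall1, Pitx1, En1, Shox2 and Prrx1, of which 7 were listed in the tables, all 3 tested were called in mutant MEF and in wound-healing fibroblasts, 2 of 4 in sgPrrx1 MEF and all 4 in MMTV-CAF. The shares over all genes were 59.9, 77.6, 43.1 and 83.1%. En2, the paralog of En1, went from 0 counts in WT MMTV-CAF to 7.003 ± 0.444 CPM with sgPrrx1 (SD, n = 3), at least 827-fold. En2 is among the 4 called there, although it entered only through the sgPrrx1 cultures. Sall2 rose in mutant MEF (0.51, SE 0.12, edgeR adjusted p = 0.00947) and in wound-healing fibroblasts (0.28, SE 0.05, adjusted p = 0.000693) and fell in MMTV-CAF (−0.15, SE 0.04, adjusted p = 0.0109). Prrx2, the paralog of Prrx1, had the largest fall of this list in sgPrrx1 MEF (−0.38, SE 0.08, edgeR adjusted p = 0.00914). It also fell in mutant MEF (−0.49, SE 0.10, adjusted p = 0.00548) and in wound-healing fibroblasts (−0.38, SE 0.04, adjusted p = 5.49e-05). In MMTV-CAF Prrx2 rose (0.70, SE 0.04, edgeR adjusted p = 1.06e-06). Sall3 and Sall4 had 0 counts in every culture.

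**Figure D3:**
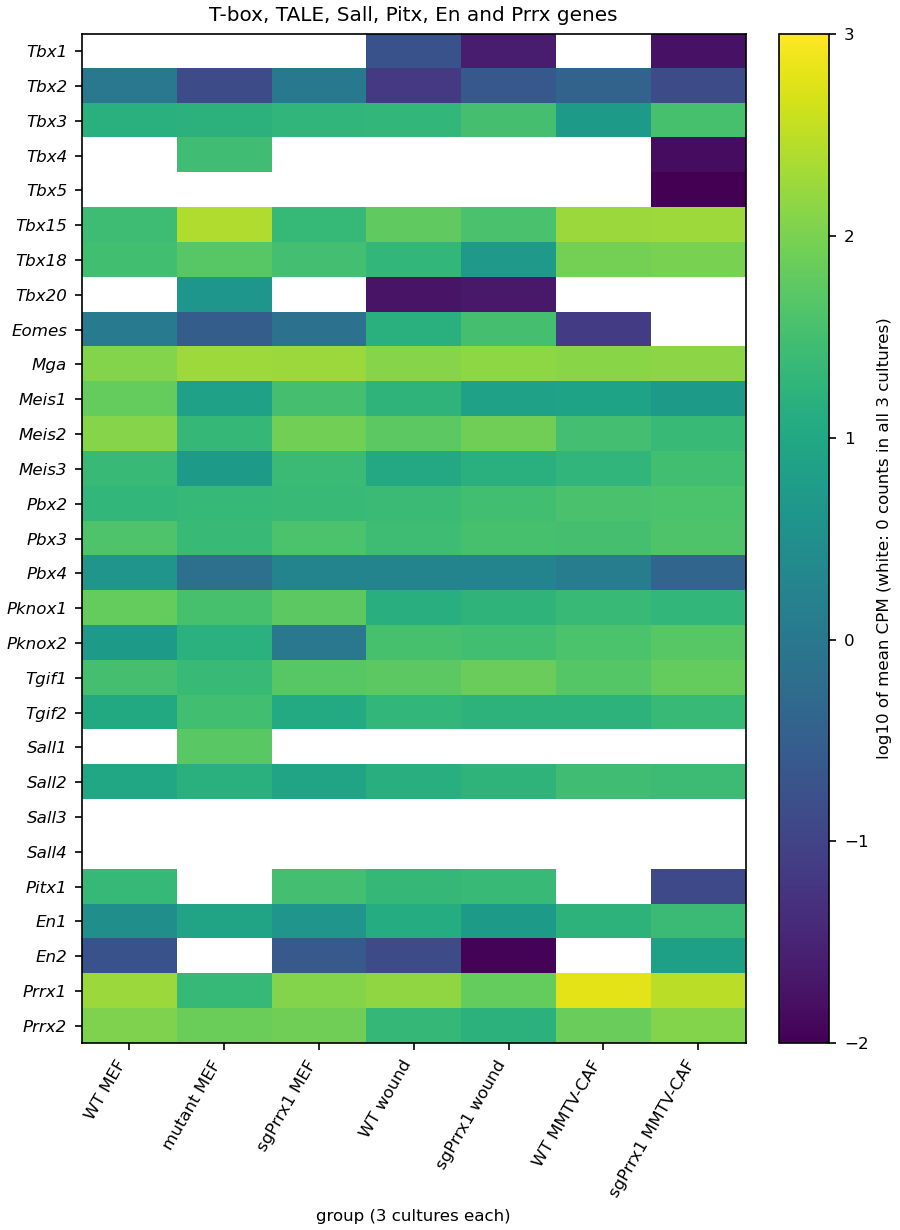
Mean CPM of 3 cultures per group, on a log10 colour scale, for genes of the T-box, TALE, Sall, Pitx, En and Prrx families; white marks 0 counts in all 3 cultures. Tbx4, Tbx20 and Sall1 are coloured in mutant MEF and white in WT and sgPrrx1 MEF, and Pitx1 and En2 are white in mutant MEF and WT MMTV-CAF.

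Further genes of limb patterning and body position showed the same mixture of directions. Of 26 limb patterning genes, 15 of 17 tested were called in mutant MEF (5 higher, 10 lower, median −0.59), 11 of 17 in sgPrrx1 MEF (2 higher, 9 lower, median −0.32), 18 of 19 in wound-healing fibroblasts (7 higher, 11 lower, median −0.26) and 15 of 17 in MMTV-CAF (10 higher, 5 lower, median 0.55). All genes were called at 59.9, 43.1, 77.6 and 83.1%. Alx1 and Alx4, paired-type factors of the limb and face, were at 0 counts in mutant MEF, against 9.88 ± 0.849 and 3.52 ± 0.315 CPM in WT MEF (SD, n = 3 each), at least 759-fold and 270-fold lower. Alx4 also had the largest fall of this list in sgPrrx1 MEF (log2 fold change −3.02, SE 0.17, edgeR adjusted p = 4.09e-05). It rose most of the list in MMTV-CAF, from 4, 8 and 0 counts in WT, or 0.0357 CPM, to 429, 509 and 358 counts with sgPrrx1. Alx4 passed the filter there only through the sgPrrx1 cultures, so no test of that rise is given. Irx3, a proximal limb factor, rose most in mutant MEF, from 0.845 ± 0.400 to 12.1 ± 0.430 CPM (SD, n = 3 each). Lhx9 rose most in sgPrrx1 MEF (0.81, SE 0.10, edgeR adjusted p = 0.0012) and in wound-healing fibroblasts (2.05, SE 0.11, adjusted p = 2.81e-07). Hhip, an inhibitor of hedgehog ligands, had the largest fall of this list in wound-healing fibroblasts (−2.29, SE 0.05, edgeR adjusted p = 2.82e-09). Dlx5 went from 60 counts over the WT MMTV-CAF cultures to 0.

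Of 31 other body-position factors, 20 of 23 tested were called in mutant MEF (15 higher, 5 lower, median 1.27), 11 of 19 in sgPrrx1 MEF (5 higher, 6 lower, median 0.14), 19 of 19 in wound-healing fibroblasts (7 higher, 12 lower, median −0.90) and 17 of 19 in MMTV-CAF (10 higher, 7 lower, median 0.23), beside 59.9, 43.1, 77.6 and 83.1% of all genes. Wt1, a factor of the mesothelium and kidney, was at 0 counts in mutant MEF against 6.89 ± 0.0940 CPM in WT MEF (SD, n = 3), at least 529-fold lower. In sgPrrx1 MEF it had the largest rise of this list (log2 fold change 1.10, SE 0.08, edgeR adjusted p = 8.47e-05). Zic1 had 56 counts over the WT MEF cultures and 0 with sgPrrx1. Gata4, a factor of lateral mesoderm and heart, rose most in both adult types, from 2.45 ± 0.334 to 22.0 ± 0.737 CPM in wound-healing fibroblasts and from 0.0636 ± 0.0183 to 26.1 ± 0.806 CPM in MMTV-CAF (SD, n = 3 each). Pax3 fell most in wound-healing fibroblasts (−3.02, SE 0.22, edgeR adjusted p = 2.67e-06), and Foxd1 went from 1.20 ± 0.0976 CPM in WT MMTV-CAF (SD, n = 3) to 0 counts, at least 144-fold lower. Both lists include genes at 0 in 1 of the groups compared, which entered only through the other group: 2 limb patterning genes and 3 body-position factors in mutant MEF, 1 body-position factor in sgPrrx1 MEF, and 1 and 2 genes in MMTV-CAF. With these genes at 0 set at their limit, no median of these lists changed. Called genes with a few counts in 1 group are outside this tally, although they too entered only through the other group. Examples are Alx4, Msx2, Gata4, Meox1 and Tfap2a in MMTV-CAF, and Tfap2a and Nkx3-2 in mutant MEF. Such genes were not set at a limit.

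**Figure D4:**
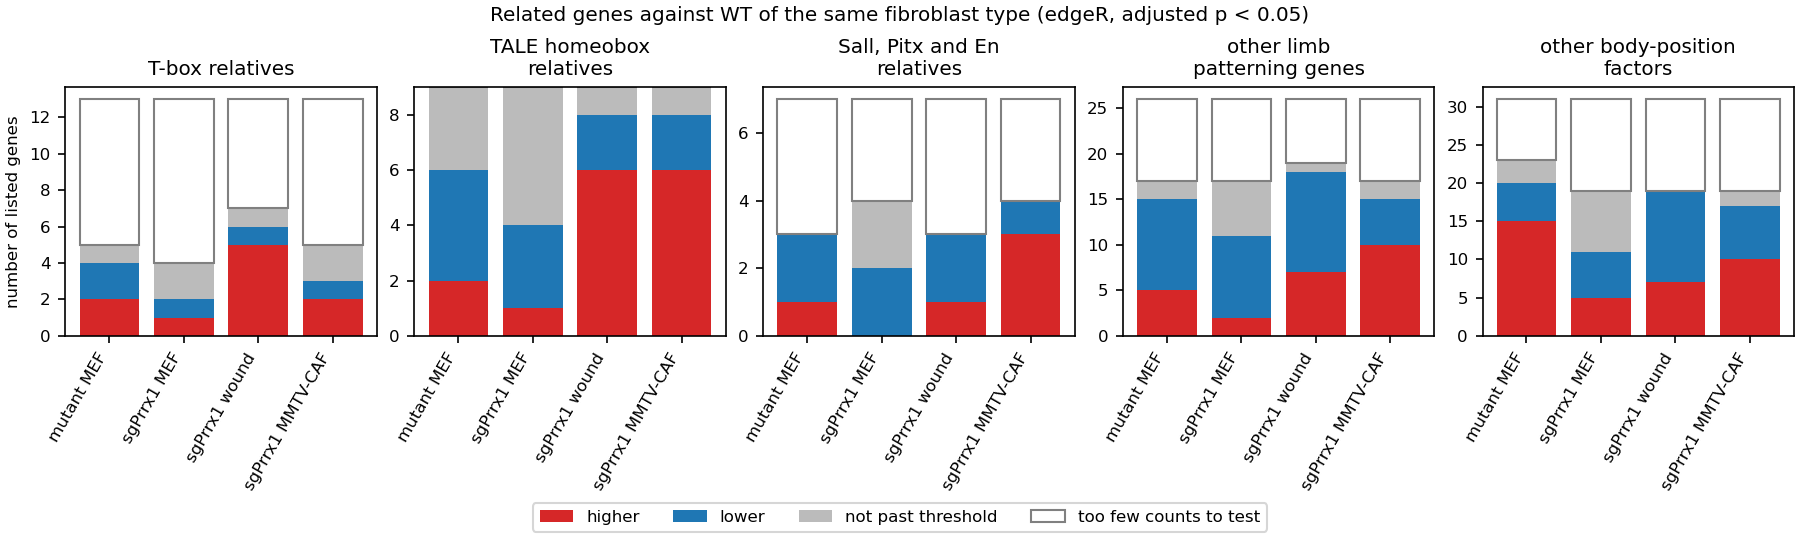
Number of genes of each list that were higher, lower or not past an adjusted p of 0.05 against WT of the same type, and the number with too few counts to test. In each of the 5 lists drawn, sgPrrx1 MEF had the fewest called genes. For TALE genes this was 4 of 9, against 8 of 9 in both adult types. The share of all genes called was also lowest there, at 43.1% against 59.9 to 83.1% for the other comparisons with WT. Whether any list departed from that share was not tested.

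The nearest protein-coding gene on each side of each factor was taken from RefSeq GRCm38.p6. Of 20 such neighbours, 19 were listed, and 5 of 14 tested were called in mutant MEF, 6 of 14 in sgPrrx1 MEF, 8 of 15 in wound-healing fibroblasts and 12 of 14 in MMTV-CAF, beside 59.9, 43.1, 77.6 and 83.1% of all genes. Tbx2, which lies 44419 bases from Tbx4, fell in mutant MEF, where Tbx4 was on. Tbx3, 111790 bases from the undetected Tbx5, was at 5.29 to 34.4 CPM in the group means and rose in MMTV-CAF by 2.68 (SE 0.04, edgeR adjusted p = 4.66e-10) and in wound-healing fibroblasts by 0.71 (SE 0.04, adjusted p = 4.53e-07). Nt5e, 596349 bases from Tbx18, rose most of the neighbours in mutant MEF (7.28, SE 0.19, edgeR adjusted p = 1.65e-06) and in MMTV-CAF (3.82, SE 0.08, adjusted p = 2.36e-09). Among the neighbours in sgPrrx1 MEF, Brip1, on the other side of Tbx4, rose most (0.46, SE 0.09, edgeR adjusted p = 0.00841), and Veph1, beside Shox2, fell most, from 0.271 to 0.00986 CPM. Wars2, beside Tbx15, fell in wound-healing fibroblasts with Tbx15 (−0.34, SE 0.04, edgeR adjusted p = 0.000117).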

How the data were processed

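Reads were processed by the authors with Trimmomatic, STAR on mm10, samtools and HTSeq, and the gene annotation is not given in the sources used here. The methods name ComBat-seq after the human samples, without saying whether mouse counts were corrected. As deposited, the values are counts, unnormalized whole numbers of reads for 24532 genes in the MEF table and 24455 in each of the others. Every one of the 21 columns had a sample, so 0 went unused. In the table of wound-healing fibroblasts the column names carry only genotype and number, and cell type followed by elimination.

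filterByExpr (minimum count 10) with the group removed low genes, TMM scaled the rest, and glmQLFit with glmQLFTest (R 4.3.3, edgeR 4.0.16) tested all genes, each model holding only the cultures it compared. Standard errors were the log2 fold change, unsigned, over the root of F. Type effects used the genes shared by the tables. The 10 genes and all lists were chosen with earlier results of these data known. Named genes are Prrx1, the 10 factors, the called gene of each list with the largest rise and the largest fall in each comparison with WT, the nearest neighbours and the 3 genes most like each factor in log2 CPM (prior count 2); a few genes this rule takes are not reported here, and others are named where counts required it and were chosen after their values were seen. Where a group had 0 counts, a limit of 3 counts over the group was used; it covers counting error only. Reads carried no molecular identifiers.

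Replicate numbers recur in all groups. The correlation of deviations of same-numbered cultures ranged from −0.355 to 0.203 and was not over 0.1 in every pair of any comparison, so the numbers were not treated as pairs. No 2 cultures of a group agreed within sampling noise (chi-square per degree of freedom 13.6 to 211). The steps were tested on simulated data. Alternatives were DESeq2 1.42.0, RLE and upper-quartile scaling, no filter, a minimum count of 100, a 2-fold threshold, the replicate block, a joint model of the 9 MEF cultures, and leaving out single cultures. Promoter sequences came from RefSeq, GRCm38.p6, the assembly of mm10, and exon lengths from Gencode M1 (NCBIM37), from which no coordinates were used. Human, single-cell and ChIP-seq data of the study were not analysed here.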

Additional observations from a re-analysis of the deposited data

Results flagged for a closer look

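The effect of sgPrrx1 differed between MMTV-CAF and wound-healing fibroblasts in 6 of 6 genes, by the interaction term of edgeR and apart from Pitx1, where 66.5% of all genes were called. The difference of the log2 fold changes, MMTV-CAF minus wound-healing fibroblasts, was 2.19 for Tbx18 (SE 0.09, adjusted p = 7.66e-12), 1.90 for En1 (SE 0.13, adjusted p = 2.7e-09) and 1.32 for Shox2 (SE 0.30, adjusted p = 0.00106). For Tbx18, En1 and Shox2 the effects had opposite signs in the 2 types, with each passing its own test. It was 0.86 for Tbx15 (SE 0.09, adjusted p = 2.97e-07), whose effects also had opposite signs, both past the threshold. For Meis1, which fell in both types and less in MMTV-CAF, it was 0.79 (SE 0.09, adjusted p = 1.69e-06). Meis2, which rose in wound-healing fibroblasts and fell in MMTV-CAF, differed by −0.92 (SE 0.19, adjusted p = 0.000434). For Pitx1 the fitted difference was 6.44 (SE 0.91, adjusted p = 2.38e-05), but WT MMTV-CAF had 0 counts and the gene passed the filter through the wound cultures, so this value is no evidence of a difference and its size depends on the prior count.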

How the results depend on the processing

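Of 745 values of single genes under alternatives, 723 kept their direction and their side of the threshold or moved by less than the spread, 12 newly passed the threshold, 6 changed sign and 4 moved; the last were fitted values of Pitx1 and Sall1 with DESeq2, which are no bounds. The count of genes called in sgPrrx1 MEF, 1 of 5, was least stable: it was 2 with DESeq2 and with upper-quartile scaling, 3 with the replicate block and with all 9 MEF cultures together, 0 at a 2-fold threshold, and 1 to 3 with a culture left out, 3 without WT replicate 3 and 2 without sgPrrx1 replicate 1 or replicate 3. The block changed the call there for Shox2 (0.85, adjusted p = 0.0244) and En1 (0.40, adjusted p = 0.0375) and no other count by over 1.5 times; the labels do not say that a number marks a shared batch. Meis2 passed there with DESeq2 (−0.55, adjusted p = 0.018), with upper-quartile scaling (−0.58, adjusted p = 0.0471) and with all 9 MEF cultures (−0.56, adjusted p = 0.0331), and En1 with all 9 MEF cultures (0.39, adjusted p = 0.0283). At a 2-fold threshold, 3 of 7 genes were called in wound-healing fibroblasts and 0 of 6 in MMTV-CAF. Over all genes, 3283, 1411, 2179 and 3377 were then called in place of 8155, 5764, 10811 and 11552. These are for mutant MEF, sgPrrx1 MEF, wound-healing fibroblasts and MMTV-CAF, where 13616, 13372, 13939 and 13903 genes were tested. Fewer calls follow from the rule itself. Without sgPrrx1 or WT replicate 2, 3834 and 3830 genes were called in sgPrrx1 MEF. Tbx18 in sgPrrx1 MEF changed sign with upper-quartile scaling (−0.02), a minimum count of 100 (−0.01), and without WT replicate 1 (−0.02) or sgPrrx1 replicate 1 (−0.05), its range with a culture left out being −0.05 to 0.07. Shox2 between sgPrrx1 and mutant MEF did so without mutant replicate 1 (0.07) or sgPrrx1 replicate 1 (0.06), in a range of −0.21 to 0.07. Shox2 in mutant MEF passed with DESeq2 (0.84, adjusted p = 0.0362). Without a filter, 7 of 9 tested genes were called in MMTV-CAF, the seventh being Pitx1. The cause of these changes was not tested. Depth limits Tbx5, Tbx4 in MMTV-CAF and Pitx1 in MMTV-CAF, each at 45 counts or fewer over a group.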

Other observations

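Hox genes also record position along body and limb. Of 39 listed, 30 of 36 tested were called in mutant MEF (9 higher, 21 lower, median log2 fold change −0.95), 11 of 31 in sgPrrx1 MEF (5 higher, 6 lower, median 0.12), 29 of 35 in wound-healing fibroblasts (18 higher, 11 lower, median 0.23) and 25 of 32 in MMTV-CAF (16 higher, 9 lower, median 0.33). The shares of all genes called were 59.9, 43.1, 77.6 and 83.1%, so the counts in sgPrrx1 MEF and MMTV-CAF lay below them. The counts include Hox genes at 0 in 1 of the groups compared, which entered only through the other group: 5 in mutant MEF and 2 in MMTV-CAF. Genes with a few counts in 1 group are outside this tally. Hoxa11 and Hoxd13, with few counts in WT MEF, also entered only through the mutant cultures. Hoxd11, a gene of the middle segment of the limb, had 0 counts in WT MEF and 14.1 ± 0.873 CPM in mutant MEF (SD, n = 3). Hoxb13, a posterior gene, had 0 counts in mutant MEF and in WT MMTV-CAF, and it was at 25.1 ± 1.20 CPM in sgPrrx1 MMTV-CAF (SD, n = 3). In wound-healing fibroblasts Hoxd13, the gene of the distal limb, rose most but only to 0.459 ± 0.0824 CPM (SD, n = 3). The same gene was at 122 ± 7.97 CPM in mutant MEF and 0.0338 ± 0.0586 CPM in WT MEF (SD, n = 3 each), a pair of values chosen after they were seen.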
